A study of Mus musculus with 6 samples.

Results

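A set of 10 genes of vessel walls and vessel growth were followed in injured mouse quadriceps muscle, namely Pecam1, Cdh5, Kdr, Flt1, Tek, Tie1, Vegfa, Eng, Vwf and Emcn. They were chosen by symbol as a set of endothelial identity and vascular growth factor genes, and all 10 were found among the 14016 genes of the deposited table. The libraries came from 3 WT mice, whose sample titles read B6, and 3 GATA-1 mutant mice, named ΔdblGATA in the study, a strain without eosinophils owing to the loss of a high-affinity GATA site upstream of Gata1. Both groups underwent volumetric muscle loss, the surgical removal of a piece of the quadriceps, received no ECM implant, and were sampled at 7 days post-injury (dpi). The methods give the WT mice as young adult female C57BL/6 animals and do not state age or sex separately for the mutants, in which the deletion is present in every cell rather than in eosinophils alone. The value used is the authors' mean log2 CPM of each gene over the 6 libraries of both genotypes; CPM scales a gene's reads to the total of its library. Values per mouse were not analysed here, so every level below is a pooled value with no replicate error, the depth of each library is unknown, and WT and GATA-1 mutant mice are not compared.

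Endothelial cells line all blood vessels and are held together by junction proteins, 2 of which are made from Cdh5 and Pecam1. Vessel growth is driven by VEGF-A, the product of Vegfa, which is secreted by surrounding cells and binds receptors on the endothelium encoded by Kdr and Flt1. Tek and Tie1 encode a second pair of receptor tyrosine kinases, which respond to angiopoietins and stabilise vessels. In skeletal muscle that regenerates after injury, the capillary bed is rebuilt alongside the fibres. Whether this took place in the muscles studied here was not tested. In whole muscle, the number of endothelial cells and the RNA per endothelial cell cannot be told apart as sources of a level.

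The promoter regions of the VEGF receptors, their ligand and endoglin are shown. Levels of these genes are given below, and a link between promoter sequence and level was not tested. RefSeq promoters (build GRCm38.p6) were matched by symbol for 7 of the 10 genes; Pecam1, Cdh5 and Vwf had no entry. The submitters' processing notes name GRCm39, so these positions belong to the older build alone. Each sequence begins 250 bases before the start of transcription, is cut where an annotated exon begins, and is written 5′ to 3′. Capitals mark 3 motifs on either strand, an ETS motif (AGGAAG), which is bound by a family of factors active in endothelium, the GC box (GGGCGG) of SP and KLF factors, and a TATA box (TATAAA). No match of one motif overlapped a match of another in the regions printed.
Kdr, chr5:75978459-75978705, reverse strand: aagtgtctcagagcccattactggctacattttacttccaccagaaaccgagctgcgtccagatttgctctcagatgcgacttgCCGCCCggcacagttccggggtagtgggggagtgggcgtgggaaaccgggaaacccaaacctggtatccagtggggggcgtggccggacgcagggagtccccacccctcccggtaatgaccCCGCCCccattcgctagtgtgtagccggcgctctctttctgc
Flt1, chr5:147726012-147726261, reverse strand: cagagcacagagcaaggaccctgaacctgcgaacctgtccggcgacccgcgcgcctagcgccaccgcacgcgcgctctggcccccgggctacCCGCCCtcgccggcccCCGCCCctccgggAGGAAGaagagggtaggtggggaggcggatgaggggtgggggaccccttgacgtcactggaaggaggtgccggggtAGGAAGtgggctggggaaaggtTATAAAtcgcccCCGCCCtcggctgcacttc
Vegfa, chr17:46032378-46032627, reverse strand: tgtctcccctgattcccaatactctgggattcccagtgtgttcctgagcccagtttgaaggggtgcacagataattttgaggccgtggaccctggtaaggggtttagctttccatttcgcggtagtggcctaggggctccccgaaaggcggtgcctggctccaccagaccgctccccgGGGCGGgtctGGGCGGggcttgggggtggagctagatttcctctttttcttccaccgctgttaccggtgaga
Eng, chr2:32646345-32646594, forward strand: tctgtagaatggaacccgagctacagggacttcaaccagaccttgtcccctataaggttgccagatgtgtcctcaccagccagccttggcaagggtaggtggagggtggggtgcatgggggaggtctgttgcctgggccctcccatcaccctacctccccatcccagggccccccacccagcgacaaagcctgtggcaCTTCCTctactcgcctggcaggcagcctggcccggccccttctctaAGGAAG

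The VEGF receptor genes differed in motif content. Flt1 held 2 ETS motifs, 3 GC boxes and 1 TATA box, the last beginning 31 bases before the start. Kdr held 2 GC boxes and neither of the other motifs, and the upstream start of Vegfa also held 2 GC boxes only. Eng held 2 ETS motifs, at 52 and 6 bases before the start. Of the regions not printed, which include that of Tie1 because annotated exons cover most of it, Emcn held 2 ETS motifs and Tie1 held 1, while Tek held none of the 3 motifs. The other start of Vegfa, not printed either, held 1 GC box only. An ETS motif was thus present in the 250 bases of 4 of the 7 genes, which have 8 promoters, against 29.5% of all 32851 RefSeq promoters. The GC box, found in Kdr, Flt1 and Vegfa, was present in 32.7% of all promoters. The TATA box, found in Flt1 alone, was present in 12.4%. Only the exact letters given for each motif were searched, on either strand, so other spellings of a motif were not counted. These matches describe letters in a short window and say nothing on binding. The upstream window of Flt1 had a GC content of 70.4%, that of Kdr 61.6% and that of Emcn 40.8%, against a median of 52.4% over all promoters.

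Vegfa had the highest level of the 10 genes, at 7.16 log2 CPM, equal to a geometric mean of 143 CPM, which lay above 93.9% of the listed genes. Cdh5, which encodes VE-cadherin, followed at 6.53 (92.3 CPM), and Pecam1, which encodes the junction protein CD31, at 6.41 (84.9 CPM). Eng, the endoglin co-receptor of the TGF-β family, stood at 5.86 log2 CPM. Eng thus lay above 82.7%, Pecam1 above 88.6% and Cdh5 above 89.6% of the listed genes.

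The receptor tyrosine kinase genes were next. Kdr, which encodes VEGFR2, the main signalling receptor for VEGF-A, was at 5.64 log2 CPM. Tie1 was at 5.48 and Flt1, which encodes VEGFR1, at 5.38. Tek, which encodes the angiopoietin receptor TIE2, was the lowest of these receptors at 4.73 log2 CPM, above 63.4% of the listed genes. Vwf, the gene for von Willebrand factor, which captures platelets at damaged vessel walls, stood at 5.27. Emcn, which encodes the mucin endomucin of capillary and venous endothelium, was the lowest of the set at 3.56 log2 CPM (11.8 CPM).

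Over all 14016 genes the median was 4.03 log2 CPM and the upper quartile 5.36. Of the 10 genes, 9 (all but Emcn) lay above that median, and 7 lay above the upper quartile. The set had a median of 5.56 log2 CPM and spanned 3.59 on the log2 scale. As the spread between mice is not known, no neighbours in this order can be said to differ.

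**Figure D1:**
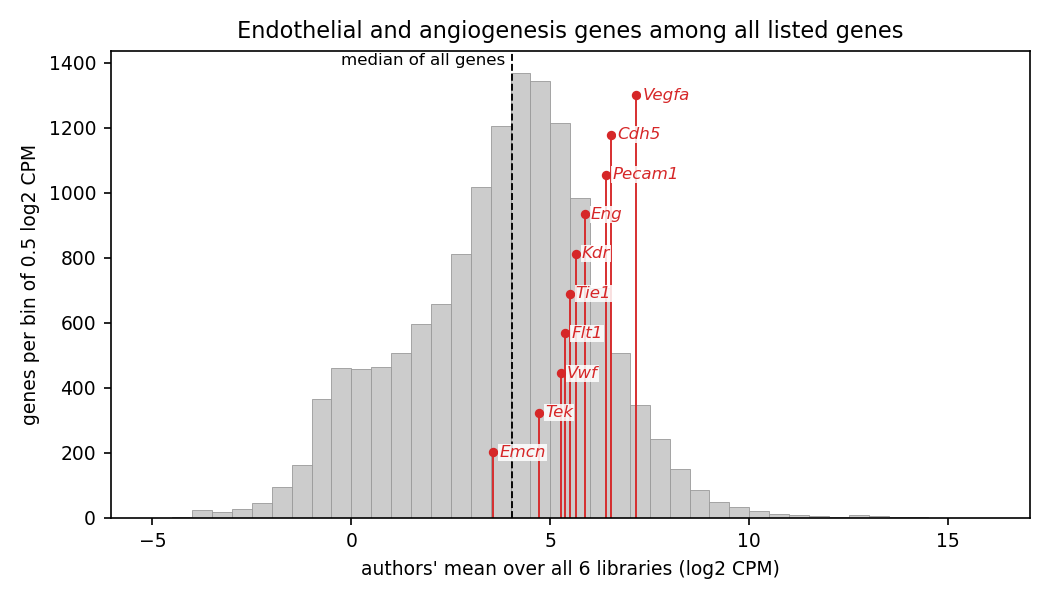
Histogram of the authors' mean log2 CPM over all 6 libraries for the 14016 listed genes (grey, genes per bin of 0.5 log2 CPM), with the level of each of the 10 genes as a red line whose height only separates the names. The genes run from Emcn at 3.56 to Vegfa at 7.16, and only Emcn lies left of the dashed median of 4.03.

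Because a longer transcript yields more reads, levels of different genes were compared per kb of transcript, using the longest coding transcript of GENCODE M21. That length ran from 2588 nt for Emcn to 8834 nt for Vwf. Vegfa remained first at 5.37 log2 CPM per kb. Pecam1 at 4.63 and Cdh5 at 4.53 log2 CPM per kb came next, 0.09 apart on this scale. Which of them was higher depended on the length used, with Cdh5 above Pecam1 by 0.02 when only coding length was counted and by 0.58 with the median length over all transcripts. Eng followed at 4.09 log2 CPM per kb.

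Of the receptor pairs, Tie1 exceeded Tek under all 4 choices of length. For both genes the longest transcript of any kind is also the longest coding one, so these choices coincide. Tie1 stood at 3.40 and Tek at 2.51 log2 CPM per kb, a difference of 0.89, or 1.86-fold, and the difference lay between 0.74 and 0.89 on the log2 scale over the 4 lengths. Tie1 encodes a receptor without a well-defined ligand of its own that pairs with TIE2. The longest coding transcript of Tie1 in the annotation carries a coding part of 1941 nt, shorter than the 3402 nt of its longest coding part, so the length to use for Tie1 is less certain.

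The order of the VEGF receptor genes was not settled in this way. Kdr stood at 3.07 and Flt1 at 2.59 log2 CPM per kb, a difference of 0.48, or 1.39-fold, in favour of Kdr. With coding length only the difference was 0.25, and with the median length over all transcripts it was -0.72, that is, Flt1 was above Kdr. Flt1 is known to give, beside the full receptor, short transcripts for a soluble form that holds VEGF-A away from VEGFR2. Its 6 annotated transcripts have a median length of 2040 nt, against 6895 nt for the longest coding one, and the table sums all transcripts of a gene, so the soluble form cannot be told apart from the receptor. Vegfa exceeded Kdr by 2.30 and Flt1 by 2.78 on the log2 CPM per kb scale. Over the 4 lengths the differences ran from 2.30 to 3.72 for Kdr and from 2.78 to 3.55 for Flt1. Muscle fibres and macrophages are known to make VEGF-A, so its level is not a level of endothelium alone.

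Vwf and Emcn closed the order at 2.13 and 2.19 log2 CPM per kb. Both lay below the median of 2.28 over the 13941 genes with a known length, while the other 8 genes lay above it. Their places depended on the length used. Emcn was at 3.92 with coding length only, since 69.7% of its longest coding transcript is noncoding, and Vwf was at 4.15 with the median length, as its 11 annotated transcripts have a median of 2184 nt. The transcript used for Vwf is almost all coding, with 4.47% noncoding.

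**Figure D2:**
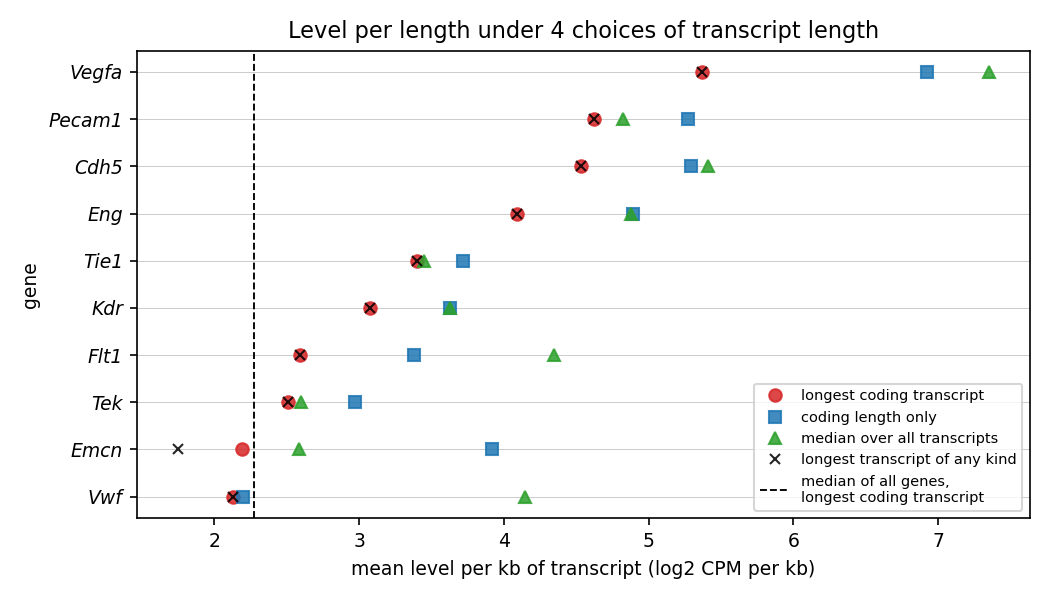
Authors' mean level divided by transcript length, in log2 CPM per kb, for each of the 10 genes (rows) under 4 choices of length (symbols), with the median of all genes for the longest coding transcript as a dashed line. Vegfa is first under each length, though its own value runs from 5.37 to 7.35, and Vwf, Flt1 and Emcn move by a similar amount with the length used.

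Sequence shared with other genes could have split few reads of this set. In the transcripts used, 0 of the 31-base words of Pecam1, Cdh5, Kdr, Flt1, Tek, Tie1, Vwf and Emcn occurred in a transcript of another annotated gene on either strand. The share was 0.499% for Vegfa, in words found in Wdr59 and other genes, and 0.590% for Eng, in words found in Fpgs, which overlaps Eng on the opposite strand. Cdh5 overlaps the antisense gene Gm29682. Whether the libraries or the counting kept the strand is not given in the sources used here. The VEGF receptor genes Kdr and Flt1 both lie on chromosome 5, each with 30 exons in the transcript used, and Tek and Tie1 both lie on chromosome 4, with 23 and 22 exons.

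Other genes of the VEGF family ranged from below to above the members. Vegfb, a ligand that binds VEGFR1 and not VEGFR2, was at 5.87 log2 CPM per kb beside Vegfa at 5.37. This order turned with the length, since Vegfb minus Vegfa was 0.50 with the longest coding transcript, -0.011 with coding length only and -1.34 with the median length. Pgf, placental growth factor, which also binds VEGFR1, stood at 0.04, and the ligands Vegfc and Vegfd, which act on lymphatic vessels, at 0.05 and 1.81. The co-receptor genes Nrp1 and Nrp2 were at 3.89 and 2.42 log2 CPM per kb, the former above Kdr under all 4 lengths. Flt4, the receptor of lymphatic endothelium, was at 0.11. Of these 7 genes, Vegfb and Nrp1 lay above the median of 3.24 log2 CPM per kb of the members, and with the median length Vegfb alone. The median percentile of the members among all genes was 66.6 with the longest coding transcript.

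For the TIE receptors, 4 of 5 partner genes were listed. Angpt1, which encodes the activating ligand of TIE2, stood at 2.00 log2 CPM per kb, beside Tek at 2.51. Angpt2, whose product can block that activation and is made by endothelium that is being remodelled, stood at 0.42. Ptprb, a phosphatase that acts on TIE2, was at 2.26, Svep1 was at 1.56, and Angpt4 was not listed. Their order against Tek depended on the length. With the longest coding transcript all 4 lay below Tek, with coding length only Angpt1 and Ptprb lay above it by 0.54 and 0.085, and with the median length Ptprb and Svep1 lay above it by 0.96 and 0.79 on the log2 scale. Angpt2 lay below Tek under all 4 lengths.

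Of 14 symbols around endoglin, 10 were listed, with a median of 2.88 log2 CPM per kb. Eng at 4.09 was above 9 of them, or above 6 with coding length only. With the longest coding transcript Eng also lay above 79.2% of all genes with a known length. Acvrl1, which encodes ALK1, the type I receptor that endoglin assists, was at 2.72, and the type II receptor genes Tgfbr2 and Bmpr2 were at 3.92 and 2.54. Id3, a target gene of this pathway, was above Eng at 4.79. The ligand genes Gdf2 (also written Bmp9) and Bmp10 were not listed.

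Among 10 genes of von Willebrand factor partners and its storage granule, 6 were listed. Cd63, which is found in the granule and in lysosomes of most cells, stood at 8.28 log2 CPM per kb. The other 5 lay below Vwf, or 4 with coding length only. With the longest coding transcript Vwf lay above 47.4% of all genes with a known length. Selp, the P-selectin gene stored with von Willebrand factor, was at -0.84, and F8, the clotting factor it carries, at -2.82. Platelets and their precursors also contain von Willebrand factor, and the deletion in GATA-1 mutant mice lies in a gene that those cells use. Of 6 platelet markers 4 were listed, Pf4 at 4.53, Itga2b at 0.31, Gp1ba at 0.02 and Ppbp at -0.94 log2 CPM per kb, and Gp9 and Treml1 were not. Their part in the level of Vwf was not tested.

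Oxygen-sensing genes control the transcription of Vegfa. All 9 on the list were present, with a median of 4.26 log2 CPM per kb. Of these, 7 lay above the median of the members, or 8 with coding length only or the median length. Many genes of the table also lay above that level, since the median percentile of the members was 66.6 on the per-kb scale. Epas1, the HIF-2α gene that endothelium uses, was at 4.33 and Hif1a at 3.65. The prolyl hydroxylase genes Egln1 and Egln2, whose products mark HIF for destruction, stood at 5.40 and 5.44, beside Vegfa at 5.37. With coding length only, Egln1 and Egln2 were at 6.98 and 6.18, against 6.93 for Vegfa. With the median length they were at 5.40 and 6.37, against 7.35 for Vegfa. Hif3a was the lowest gene of this list at -4.20.

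Of the 11 endothelial markers on the list used, 8 are members, so only the other 3 bear on the endothelial label. All 3 were listed, Cldn5 at 3.90, Esam at 3.86 and Erg, an ETS factor gene, at -1.07 log2 CPM per kb. Erg thus lay below every member, as it did under all 4 lengths. Of 19 further junction, surface and capillary genes, all of them listed, 16 lay above the lowest member. That member itself lay above only 47.4% of the genes with a known length. The count was 18 with coding length only, 16 with the median length and 17 with the longest transcript of any kind. The 19 genes had a median of 3.35 log2 CPM per kb and ran from Robo4 at 0.80 to Fabp4 at 9.30. Fabp4 encodes a lipid carrier that capillary endothelium shares with adipocytes. Of 16 endothelial transcription factor genes, Erg included, 15 were listed, with a median of 2.08, from Foxc2 at -2.09 to Ets2 at 3.86 log2 CPM per kb, and Etv2 was not listed.

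Other cell types of the tissue stood around the set. All 7 skeletal muscle fibre markers were above every member under all 4 lengths, from Myh2 at 7.96 to Acta1 at 13.77 log2 CPM per kb. All 9 pericyte and smooth muscle markers were listed, with a median of 3.59, from Kcnj8 at -1.57 to Des, which muscle fibres also express, at 10.14. Leukocyte and macrophage markers, 7 of 7 listed, ran from Itgam at 2.18 to Lyz2 at 8.72. Leukocytes and platelets are known to express Pecam1, and their part in its level was not tested. Of 8 eosinophil markers only Ear2 was listed, at 0.61 log2 CPM per kb.

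**Figure D3:**
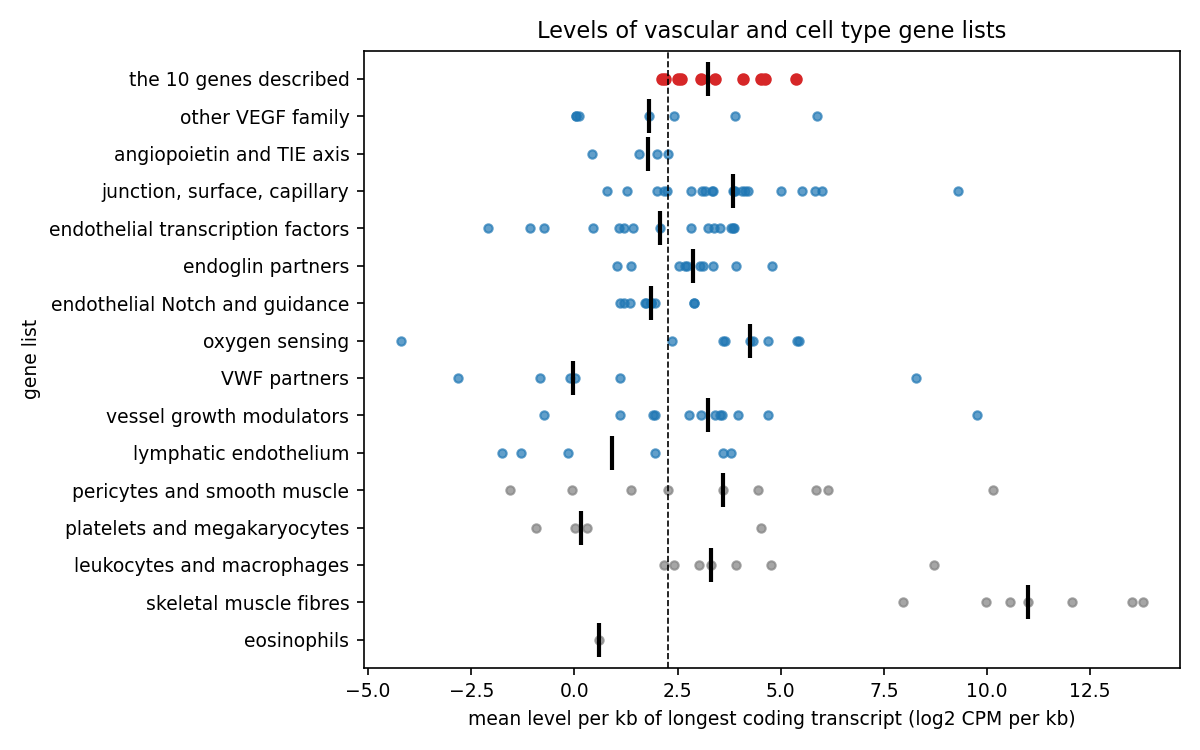
Authors' mean level per kb of the longest coding transcript (log2 CPM per kb) for the 10 genes described (red), further vascular gene lists (blue) and markers of other cell types (grey), with 1 point per listed gene, the list median as a black bar and the median of all genes as a dashed line. The 10 genes run from 2.13 to 5.37 with a median of 3.24, below every skeletal muscle fibre marker.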

How the data were processed

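RNA of injured quadriceps was poly(A)-selected by a service laboratory and sequenced from 3 WT and 3 GATA-1 mutant mice. The authors used kallisto for pseudoalignment of the paired-end reads and edgeR for gene-level CPM. The authors filtered at 1 CPM in 3 or more samples, took logs with TMM normalization and fitted limma. The submitters' processing notes name the builds GRCm39 and mm39. The deposited column used is the authors' mean log2 CPM per gene over all libraries. The other columns hold the authors' own comparison of the genotypes (log2 fold change, moderated t, p-values and log odds) and were not used. The planned limma fit needs values per mouse, which were not analysed here, so no test was made.

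Percentiles are the share of listed genes with a lower level; 1 of the 14016 rows has no symbol. Lengths came from GENCODE M21 (GRCm38) for 13941 genes (99.46%), of which 483 were matched by RefSeq synonyms. The log2 length in kb of the longest coding transcript was subtracted from the level. This ignores the mix of isoforms and the effective length that kallisto uses. Shared sequence was counted in 31-base words. Promoter motifs were searched in the 250 bases before each start. Functions were tested on simulated data. Python 3.11.15, pandas 2.3.3, numpy 2.4.6 and matplotlib 3.10.9 were used. The genes named are the 10 members and genes of the companion and marker lists. The members, lists and motifs were chosen with earlier results of these data known. Alternatives were other sets of genes to rank against and other transcript lengths; for companion genes the latter were added after the data were seen.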

Additional observations from a re-analysis of the deposited data

How the results depend on the processing

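No paired analysis was possible because the values used are means over all libraries and no test was made. For the same reason the planned genotype fits were not run, namely other filters, centring of libraries, limma without a mean trend, other pseudocounts, the replicate block and leaving out each library. The median of the percentiles of the 10 genes was 78.3 among all listed genes. It was 78.0 among protein-coding genes, 74.5 among genes with a mean of at least 1 log2 CPM and 67.4 among those with at least 3. The median level per kb was 3.24 log2 CPM per kb with the longest coding transcript or the longest transcript of any kind, 3.82 with coding length only and 4.25 with the median transcript length. Of the 45 pairs of members, 40, 36 and 44 kept their order with coding length, median length and the longest transcript of any kind, and Vegfa was first under each. Among the members, the longest transcript of any kind differed from the longest coding one only for Emcn (3521 against 2588 nt). That setting could therefore reorder only pairs that include Emcn. The order of companion genes against members was run under the same lengths after the data were seen. With coding length only, the difference was -0.011 for Vegfb minus Vegfa, 0.085 for Ptprb minus Tek and 0.54 for Angpt1 minus Tek, and with the median length it was -1.34 for Vegfb minus Vegfa, 0.96 for Ptprb minus Tek and 0.79 for Svep1 minus Tek, each the reverse of the order with the longest coding transcript. The lowest gene was Vwf with coding length and Emcn with the other 2 lengths. Of 113 companion symbols 101 were listed, 94 of them at or above 1 log2 CPM and 78 at or above 3. Depth per library is unknown, and no error can be set on any level.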

Other observations

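All 6 genes of lymphatic endothelium were listed, with a median of 0.90 log2 CPM per kb. Of these, 4 lay below the lowest member and 2 above the median of the members. The lowest member itself lay above 47.4% of the genes with a known length, and the median percentile of the members was 66.6. Both counts depended on the length used. With coding length only, Lyve1 at 3.56 lay above the lowest member, Vwf at 2.20. With the median length, Ccl21a at 3.60 lay below the members' median of 4.25. Pdpn, which fibroblasts also express, was the highest at 3.80, followed by the chemokine gene Ccl21a at 3.60. Lyve1, a hyaluronan receptor shared with some macrophages, was at 1.96, and the lymphatic fate factor gene Prox1 at -0.16. Reln was the lowest at -1.75 log2 CPM per kb. With the median length, Mmrn1 was the lowest at -1.30 and Reln was at 0.44.

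Of 12 genes of endothelial Notch signalling and vessel guidance 11 were listed, with levels from 1.10 for Unc5b to 2.90 log2 CPM per kb for Ephb4, the receptor of venous endothelium. Its arterial ligand Efnb2 was at 1.70 and the tip cell ligand Dll4 at 1.19. The ends of this list depended on the length used. With coding length only, Nrarp was the highest at 4.87 and Notch4 the lowest at 1.51. With the median length, Notch1 was the highest at 6.27 and Unc5b the lowest at 1.14, with Ephb4 at 3.05. Hey2 was not listed. Among 13 modulators of vessel growth 12 were listed, with a median of 3.24 log2 CPM per kb. Sparc, a matrix protein gene of many stromal cells, was the highest at 9.75, and Esm1, a gene of tip cells, the lowest at -0.73. Apln, which tip cells make, was at 1.09 and its receptor gene Aplnr at 3.07. Thbs1 and Thbs2, whose products inhibit vessel growth, were at 3.57 and 4.68 log2 CPM per kb, and Fgf2 was not listed.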
